A study of Homo sapiens with 6 samples.

Results

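Transcripts of the metallothioneins and of MTF1, the transcription factor that controls them, were compared between adrenocortical cells given a cAMP analogue and untreated cells. The members are the probe sets whose platform annotation gives 1 symbol out of MT2A, MT1X, MT1H, MT1HL1, MT1G, MT1F, MT3 and MTF1. They stood for 8 of 11963 genes named from a single symbol, with 12 of the 22215 probe sets analysed. The genes were chosen by their symbols with the log2 differences between 8-Br-cAMP and control on these arrays known, so those differences are given as a description and support nothing by themselves. MT1E, MT1M and MT4, the other metallothionein genes with single-symbol probe sets (4 in all), were set beside them. A comparison with probe sets listed under several metallothionein symbols could not be made, since 0 such probe sets were found.

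The cells were NCI-H295A, an established steroid-producing line from a human adrenocortical carcinoma. In one group of 3 arrays the cells had been exposed to 8-Br-cAMP (1 mM, 18 h). This analogue of cAMP enters cells and mimics the second messenger of the pituitary hormone ACTH, and the sample labels shorten its name to cAMP. The other 3 arrays came from untreated control plates. Both groups grew in medium with serum, insulin and selenium, and each number 1 to 3 occurs once in each group.

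Metallothioneins are small, cysteine-rich proteins that hold zinc, copper and toxic metals such as cadmium in clusters of thiolate bonds. They buffer free zinc and take up reactive oxygen species. MTF1 is a zinc-finger protein that senses a rise in free zinc, enters the nucleus and binds metal response elements (MREs) in metallothionein promoters. Glucocorticoids, the steroids that the adrenal cortex itself makes, are also known inducers of MT2A.

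Of the members, 6 genes lie in 1 cluster on chromosome 16 that spans 94.7 kb (chr16:56589528-56684196 in GRCh38.p14, from the start of MT3 to the end of MT1X) and holds 15 metallothionein genes and pseudogenes, 10 of them protein-coding. MT1HL1, a gene resembling MT1H, lies at chr1:237004103-237004441, and MTF1 at chr1:37809574-37859592. RefSeq's promoter table (GRCh38.p14) held 4 of the 8 genes. Their 250 bases before the annotated gene start are shown because 3 of them belong to genes with higher signals after 8-Br-cAMP, and the last belongs to their regulator. They are read 5′ to 3′ on the gene's strand, from chr16:56608334-56608583 (plus strand), chr16:56682220-56682469 (plus), chr16:56669564-56669813 (plus) and chr1:37859593-37859842 (minus). Capitals mark matches to the MRE core in the metallothionein genes, and in MTF1 a match to the CRE half-site TGACG.
MT2A: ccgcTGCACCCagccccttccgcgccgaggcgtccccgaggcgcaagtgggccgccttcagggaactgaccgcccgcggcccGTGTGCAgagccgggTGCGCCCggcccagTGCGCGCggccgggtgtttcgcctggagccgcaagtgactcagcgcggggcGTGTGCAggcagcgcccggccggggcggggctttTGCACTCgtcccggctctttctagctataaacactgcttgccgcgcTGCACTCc
MT1X: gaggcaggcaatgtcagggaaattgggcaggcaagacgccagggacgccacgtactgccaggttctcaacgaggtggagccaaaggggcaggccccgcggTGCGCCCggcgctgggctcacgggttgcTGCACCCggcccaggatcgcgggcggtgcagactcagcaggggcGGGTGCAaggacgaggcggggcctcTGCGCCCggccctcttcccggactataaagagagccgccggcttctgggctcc
MT1H: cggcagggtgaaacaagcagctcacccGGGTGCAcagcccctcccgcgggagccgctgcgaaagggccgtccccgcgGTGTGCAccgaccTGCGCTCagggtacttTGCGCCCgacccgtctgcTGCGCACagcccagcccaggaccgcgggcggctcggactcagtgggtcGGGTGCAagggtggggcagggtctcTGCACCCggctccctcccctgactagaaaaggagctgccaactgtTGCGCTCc
MTF1: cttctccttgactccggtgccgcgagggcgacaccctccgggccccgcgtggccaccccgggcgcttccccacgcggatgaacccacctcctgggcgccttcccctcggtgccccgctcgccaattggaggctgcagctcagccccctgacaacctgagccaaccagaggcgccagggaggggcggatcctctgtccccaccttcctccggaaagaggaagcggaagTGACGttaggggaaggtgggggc

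The MRE core was searched as TGCACNC and TGCGCNC on both strands. It occurred 7 times before MT2A, 4 times before MT1X and 8 times before MT1H, and 0 times before MTF1. Outside the members, it occurred 3 times each before MT1B and MT4, and the MT4 probe set had a mean signal below the filter used here. Of all 35116 promoters in the table, 24.8% held at least 1 match. Of these, 555 held 3 or more, 130 held 4 or more, 11 held 7 or more and 6 held 8 or more. None of these matches overlapped another motif searched. The full cAMP response element TGACGTCA, held by 1.65% of promoters, was found in 0 of the 4 windows. Its half-site TGACG, held by 21.2%, was found only before MTF1, from base 23 to base 19 before the start. MT2A also held an AP-1 motif (TGACTCA or TGAGTCA, in 4.2% of promoters), and MT2A and MT1X each held 1 TATA box (TATAAA, in 10.7%). A match is a description of the letters in this window and does not show that a factor binds there.

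**Figure D1:**
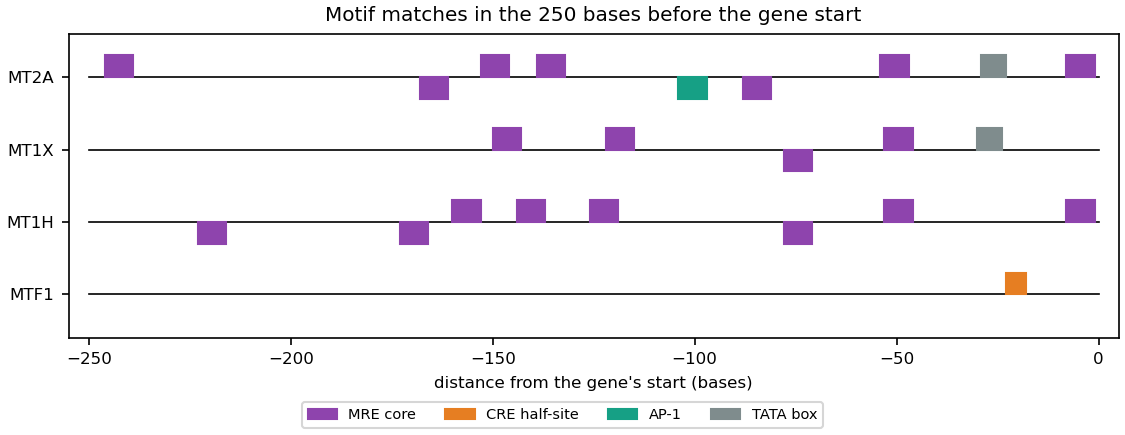
Motif matches in the 250 bases before the start of MT2A, MT1X, MT1H and MTF1 (x axis: distance from the gene's start in bases; boxes above a line are on the gene's strand, boxes below on the other). MRE cores occur 7, 4 and 8 times before the metallothionein genes, and 0 times before MTF1.

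The arrays numbered 1 stood apart from the others in both groups. The 3'/5' signal ratio of the actin control, a sign of RNA integrity, was 38.8 on 8-Br-cAMP 1 and 5.72 on control 1, against 1.93 to 2.41 on the other 4 arrays. All 7 adrenocortical markers on the array passed the signal filter, and 0 of 4 markers of the adrenal medulla and 0 of 2 of macrophages did. The weakest of the 7, the ACTH receptor MC2R (21.1 to 91.9), was above the filter level on 4 arrays. Of the endothelial markers 2 of 3 passed, PECAM1 (24.3 to 104.6) and VWF (13.2 to 292.3), with CDH5 at 11.5 or below, and of the fibroblast markers 1 of 3, COL1A1 (96 to 167.4). Their part in the differences was not tested. A higher signal cannot be told apart from more expressing cells, and the labels do not say that the plates came from separate cultures, so errors may measure technical spread alone.

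The probe sets for MT2A, MT1X (both), MT1H, MT1HL1 and MT1G, 6 in all, were higher on every 8-Br-cAMP array than on any control array, by 2.42-fold to 3.20-fold. Groups that do not overlap, with 8-Br-cAMP higher, occurred in 6.02% of all kept probe sets, and in either direction in 18.5%. MT3 was higher in all 3 same-numbered pairs, while MT1F and MTF1 differed little or in both directions. Of the 12 member probe sets, 11 had a mean signal above the filter level of 45.5. In limma's fit without a block, 0 of these 11 passed an adjusted p of 0.05, as did 0% of all 13329 probe sets kept (6 of the 11, and 11.1% of all, had an unadjusted p under 0.05). In the fit with the sample number as a block, called the paired fit below, 7 of the 11 passed, all higher, where 3.21% of all kept probe sets passed and 1.55% passed as higher. These 7 were the 6 whose groups did not overlap and MT3. The labels do not say that same-numbered arrays are pairs. In the paired fit with a common median 5 of the 11 passed, as did 142 of all 13329 kept probe sets. MT2A and MT1G 204745_x_at did not pass there. With a common median and no block 0 of the 11 passed, and 17 of all kept probe sets. By the selection that the series' design text describes (a 2-fold change and an unadjusted p below 0.05, here limma's without the block), 6 of the 11 were higher, as were 2.5% of all kept probe sets. The median log2 difference of the 11 was 1.34, against -0.13 over all kept probe sets.

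**Figure D2:**
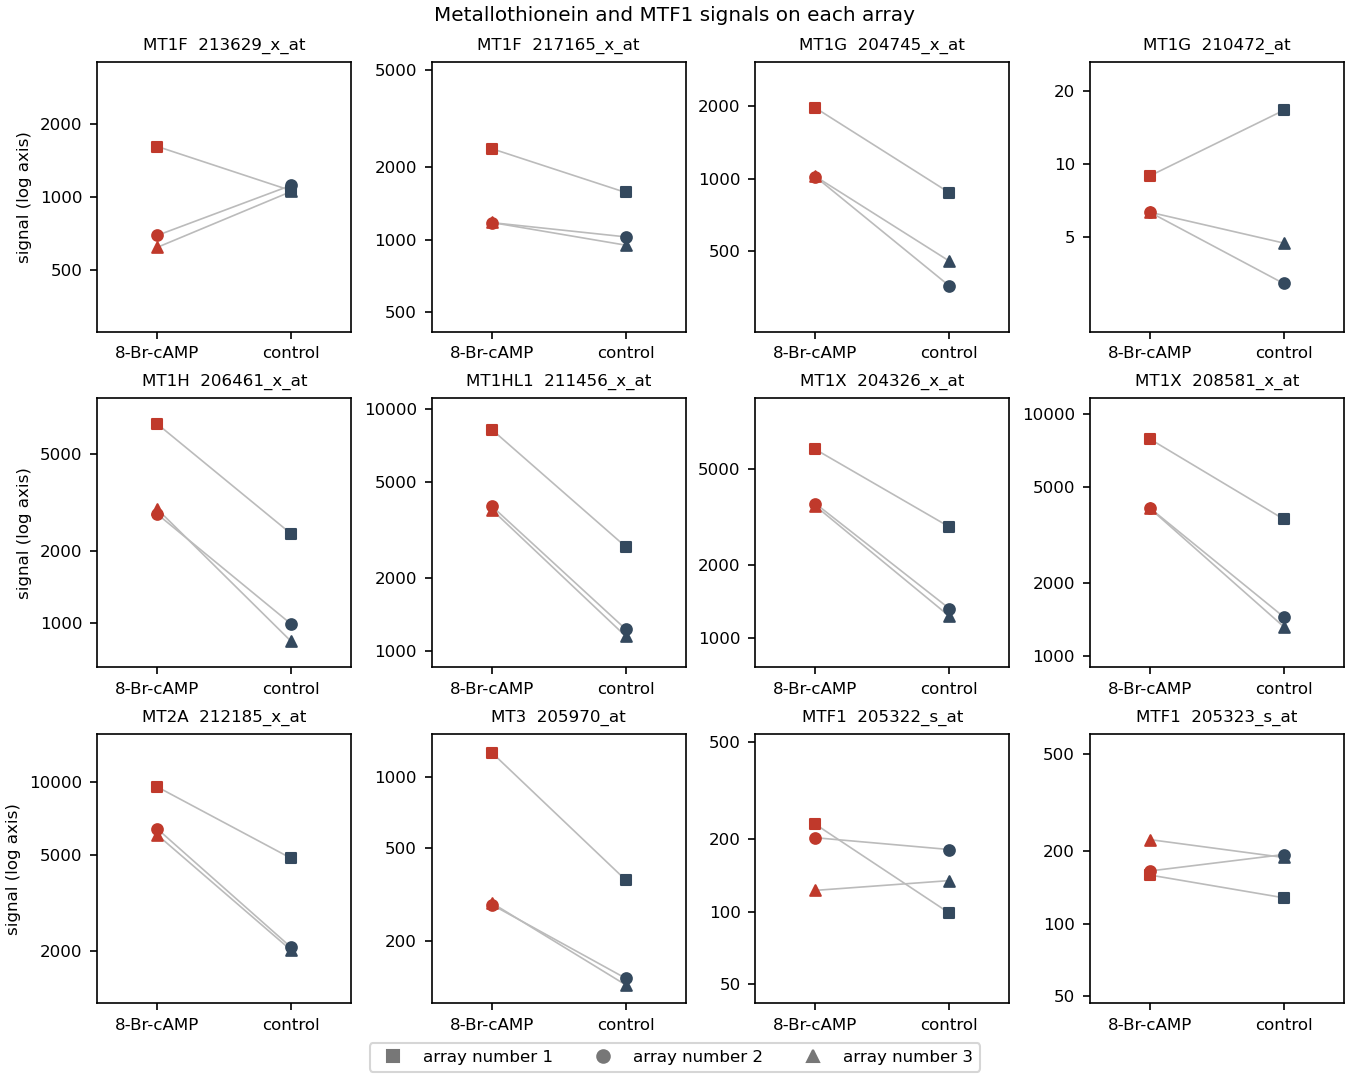
Signal of each member probe set on each array (y axis: deposited signal, log scale), with 8-Br-cAMP arrays on the left and control arrays on the right of each panel and lines joining same-numbered arrays. The groups do not overlap for MT2A, both MT1X probe sets, MT1H, MT1HL1 and the MT1G probe set 204745_x_at.

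MT2A, the main metallothionein of many human tissues, had signals of 9524.8, 6387.7 and 6035 on 8-Br-cAMP arrays 1, 2 and 3, against 4832.5, 2070.3 and 2014.3 on controls 1, 2 and 3. All treated arrays lay above all control arrays, and array 1 was the highest in each group. The mean log2 difference was 1.40 ± 0.36 (SD over 3 pairs), or 2.63-fold. Pair 1 differed less (0.98) than pair 2 (1.63) and pair 3 (1.58). Without the number 1 arrays the difference was 3.04-fold.

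MT1X, a metallothionein of the MT1 group, has 2 probe sets. On 208581_x_at its signals were 7885.8, 4090.5 and 4079.7 on 8-Br-cAMP arrays 1 to 3, against 3680.5, 1453.2 and 1323.5 on controls 1 to 3. On 204326_x_at they were 5997.9, 3583.6 and 3503 after 8-Br-cAMP, against 2873, 1320.8 and 1228.6 in controls. Neither probe set had overlapping groups. The log2 differences were 1.41 ± 0.27 and 1.34 ± 0.24 (SD over 3 pairs), or 2.65-fold and 2.53-fold, and 2.95-fold and 2.78-fold without the number 1 arrays. The platform annotation names both probe sets MT1X, but the accession it gives for 204326_x_at belongs in the RefSeq gene table to MT1L, a transcribed pseudogene of the cluster, so which transcript this probe set reports is uncertain.

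MT1H, another MT1 isoform of the cluster, had signals of 6659.7, 2825.3 and 2962.6 on 8-Br-cAMP arrays 1 to 3, against 2344, 993.4 and 842.6 on controls 1 to 3. Its log2 difference was 1.61 ± 0.18 (SD over 3 pairs), or 3.05-fold, and 3.16-fold without the number 1 arrays. MT1HL1, its relative on chromosome 1, had 8211.8, 3963.1 and 3833.2 after 8-Br-cAMP, against 2696.5, 1231.1 and 1151.3 in controls. Its pairs lay close together, at 1.61, 1.69 and 1.74 on the log2 scale (mean 1.68 ± 0.065, SD, or 3.20-fold), and it was 3.27-fold higher without the number 1 arrays. The treated arrays of both genes lay above all of their control arrays.

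MT1G has 1 probe set with a clear signal and 1 without. On 204745_x_at the signals were 1957.8, 1017.2 and 1020.3 on 8-Br-cAMP arrays 1 to 3, against 874.9, 360.5 and 456.4 on controls 1 to 3, with no overlap. The log2 difference was 1.27 ± 0.19 (SD over 3 pairs), or 2.42-fold, and 2.51-fold without the number 1 arrays. On 210472_at every signal lay between 3.2 and 16.6, far below the filter level, with differences of -0.90, 0.98 and 0.42 in pairs 1 to 3, so no direction can be read from it.

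MT1F, a further MT1 isoform, had smaller or opposite differences, and its 2 probe sets disagreed. On 217165_x_at the signals were 2375, 1175.2 and 1177 on 8-Br-cAMP arrays 1 to 3, against 1566.6, 1026.5 and 948.7 on controls 1 to 3. Treated arrays were higher in each pair, by 0.60, 0.20 and 0.31 on the log2 scale, but the groups overlapped, and the difference was 1.19-fold without the number 1 arrays. On 213629_x_at the signals were 1615.7, 694.4 and 619.8 after 8-Br-cAMP, against 1062.1, 1117.4 and 1053.7 in controls. Here pair 1 was higher by 0.61 on the log2 scale, while pairs 2 and 3 were lower, at -0.69 and -0.77. On arrays 2 and 3 alone this probe set was at 0.60 times its control level and passed limma's fit as lower, where 30.8% of all kept probe sets passed in either direction.

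MT3, known as the brain metallothionein and as a growth inhibitory factor for neurons, was measured by 205970_at, the kept metallothionein probe set whose name does not carry the suffix x. Its signals were 1275.8, 285.9 and 290.8 on 8-Br-cAMP arrays 1 to 3, against 364.9, 138.7 and 130 on controls 1 to 3. Control 1 lay above 8-Br-cAMP 2 and 3, so the groups overlapped, although treated arrays were higher in each pair. The log2 difference was 1.34 ± 0.41 (SD over 3 pairs), or 2.53-fold, and 2.15-fold without the number 1 arrays. Pair 1 differed by 1.81, and pairs 2 and 3 by 1.04 and 1.16, so MT3 differed most in pair 1, where MT2A and MT1X differed least. The 2 arrays of pair 1 were also unlike in the actin 3'/5' ratio (38.8 on 8-Br-cAMP 1, 5.72 on control 1), and its part was not tested.

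**Figure D3:**
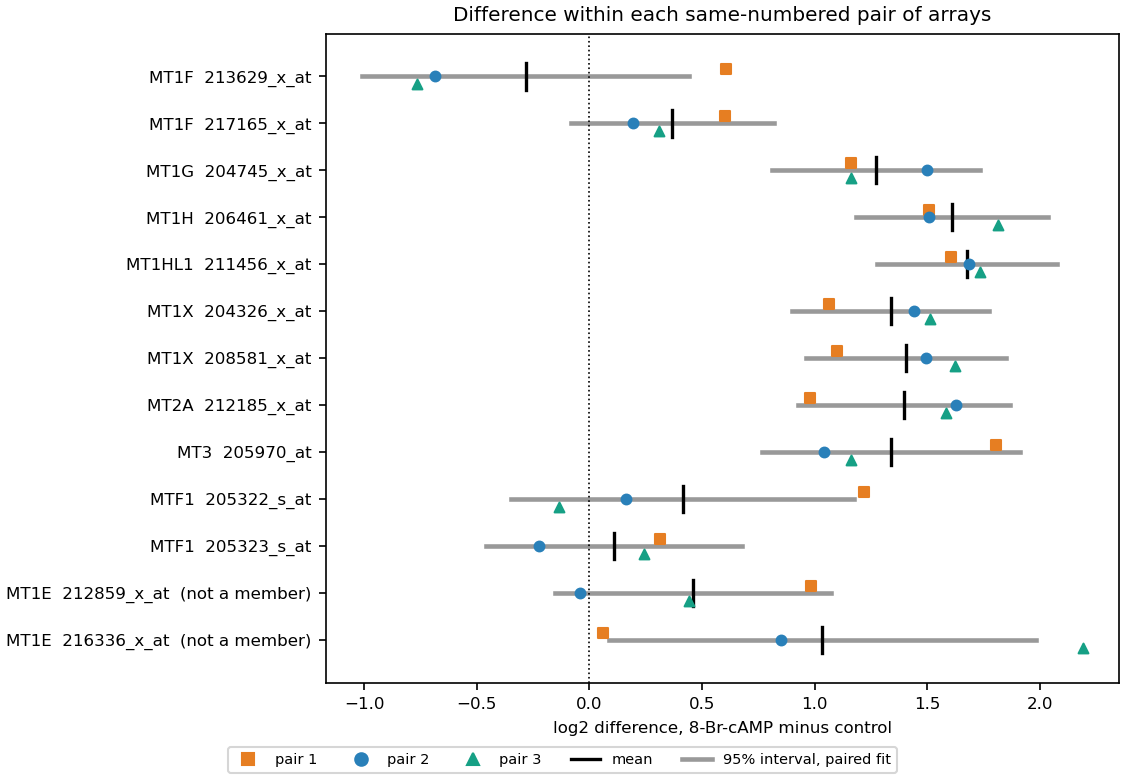
Log2 difference (8-Br-cAMP minus control) within each same-numbered pair for the member probe sets above the filter and for MT1E. Black ticks are means over 3 pairs and grey bars the 95% intervals of the paired fit. MT2A, MT1X, MT1H, MT1HL1, the MT1G probe set 204745_x_at and MT3 lie right of 0 in every pair, as does MT1F 217165_x_at, while MT1F 213629_x_at, both MTF1 probe sets and MT1E 212859_x_at have pairs on both sides of 0.

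MTF1 transcript signals showed no common direction. On 205322_s_at they were 229.2, 201.8 and 122.3 on 8-Br-cAMP arrays 1 to 3, against 98.6, 180.4 and 134.2 on controls 1 to 3. On 205323_s_at they were 158.8, 165 and 222.4 after 8-Br-cAMP, against 127.9, 192.9 and 187.7 in controls. The groups overlapped on both probe sets. The log2 differences were 0.41 (95% interval of the paired fit -0.35 to 1.18) and 0.11 (-0.46 to 0.68). On arrays 2 and 3 alone they came to 0.014 and 0.0097. These intervals do not exclude a change of MTF1 near 2-fold on the first probe set, and transcript signals say nothing of where the protein is or whether zinc is bound to it.

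The metallothioneins also differed between arrays of the same group. On all 9 metallothionein member probe sets above the filter, 8-Br-cAMP 1 was the highest treated array, and on 8 of the 9 control 1 was the highest control array, the exception being MT1F 213629_x_at. Over all kept probe sets these shares were 49.6% and 38.7%. The median excess of array 1 over the mean of arrays 2 and 3, on the log2 scale, was 1.01 after 8-Br-cAMP and 1.18 in controls. Over all kept probe sets it was 0.099 and -0.065. MT3 had an excess of 2.15 after 8-Br-cAMP and 1.44 in controls, while MTF1 205323_s_at was lower on array 1 in both groups, by -0.27 and -0.57. The actin 3'/5' ratio moved with this split of the arrays, and its part was not tested. Arrays 2 and 3 of each group differed by at most 0.34 on the log2 scale for the 9 metallothionein probe sets, the most for MT1G in controls.

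Of the 12 member probe sets, 8 carry the suffix x, which marks sets with probes that can also match other transcripts. MT1 transcripts are near-identical in sequence, so signals of MT1H, MT1HL1, MT1X, MT1G and MT1F may share transcripts, and the array cannot fully tell these genes apart. The only MT2A probe set, 212185_x_at, also carries the suffix, so its signal may not be independent of theirs. The differences from control were 1.68 for MT1HL1 and 1.61 for MT1H on the log2 scale, and 1.41 and 1.34 for the MT1X probe sets. These close values may not be independent measurements of several genes.

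Among the metallothioneins outside the members, MT1E differed unevenly between pairs. Its probe set 216336_x_at had 318.5, 452.5 and 503.6 on 8-Br-cAMP arrays 1 to 3, against 305.2, 250.8 and 110.4 on controls 1 to 3. The groups did not overlap, but pairs 1, 2 and 3 differed by 0.062, 0.85 and 2.19 on the log2 scale, and the paired fit did not call it (adjusted p = 0.204). It was 2.87-fold higher and passed without the number 1 arrays (adjusted p = 0.0104). The other MT1E probe set, 212859_x_at, had 656.1, 308.4 and 304.9 after 8-Br-cAMP, against 332.2, 317.2 and 224.6 in controls (log2 difference 0.46, adjusted p = 0.355). MT1M and MT4 had mean signals below the filter level, with MT1M at 1.2 to 5.4 on every array.

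The array profile of MT2A, the metallothionein probe set with the highest mean signal, was then compared with that of every other gene. Likeness was the root-mean-square distance between log2 signals on the 6 arrays, each centred on its own mean, and it is a description. The MT1X probe sets lay at 0.065 and 0.13, MT1G 204745_x_at at 0.17, MT1HL1 at 0.21 and MT1H at 0.24. Like that of MT2A, these probe sets carry the suffix x and may share transcripts. MT3 lay at 0.52, with 280 of 7919 other genes closer to MT2A, and the MT1F probe sets at 0.56 and 0.97. MTF1 was farther from MT2A than 2175 of these genes on its nearer probe set (0.83). The 5 closest genes outside the members were CYTH1, an exchange factor for ARF proteins (0.064), CTSA, the lysosomal protective protein cathepsin A (0.067), and UBE2S, a ubiquitin-conjugating enzyme (0.11). B4GALT5, a galactosyltransferase (0.13), and IGF1R, the IGF1 receptor (0.14), followed. CYTH1 had 507.6, 337.2 and 345.4 on 8-Br-cAMP arrays 1 to 3, against 239, 114.2 and 108.7 on controls 1 to 3. Array 1 was the highest in each group, as for MT2A, which follows from choosing CYTH1 by its likeness to MT2A.

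Genes of zinc and copper handling were read from fixed lists, 1 probe set per gene, in the paired fit, which called 1.73% of 7927 genes higher and 1.96% lower. Of 7 MTF1 targets known outside the family, several of them from mouse, 5 were measured and 0 passed. SLC30A1, the exporter that carries zinc out of the cell and a classic MTF1 target, had 166.3, 174.6 and 244.2 on 8-Br-cAMP arrays 1 to 3, against 686.5, 213.4 and 242.3 on controls 1 to 3. Its log2 difference of -0.77 (95% interval -1.75 to 0.20, adjusted p = 0.330) came mainly from pair 1, at -2.05, and was -0.14 without the number 1 arrays. GCLC, the catalytic subunit of the first enzyme of glutathione synthesis, differed by 0.23 (-0.25 to 0.71, adjusted p = 0.559). PGF, a placental growth factor, differed by 0.42, SELENOW, a selenoprotein, by -0.22, and NDRG1, a stress-responsive gene, by 0.94 (adjusted p = 0.0799). These 3 were named after their values were seen. Without the number 1 arrays 1 of the 5 passed as higher, NDRG1 (0.97, adjusted p = 0.0234), and 1 as lower, SELENOW (-0.59, adjusted p = 0.0211), where 12.8% of all genes passed as higher and 20.5% as lower. PGF was at 0.055.

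**Figure D4:**
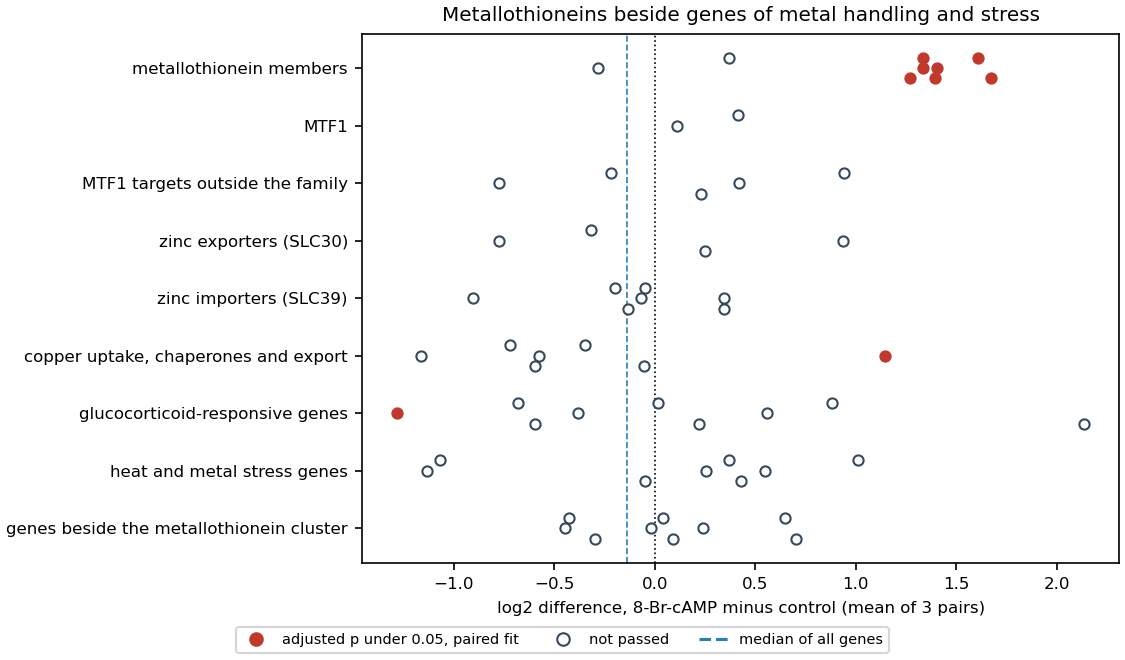
Log2 difference (8-Br-cAMP minus control, mean of 3 pairs) of each measured gene or member probe set, by list. Filled points passed the paired fit at an adjusted p of 0.05, and the dashed line is the median of all genes (-0.14). Filled points number 7 among the metallothioneins, 1 among the copper genes (SLC31A1) and 1 among the glucocorticoid-responsive genes (SGK1).

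Zinc transporter genes did not pass in either direction. Of the exporters of the SLC30 family 4 were measured, with a median log2 difference of -0.032, and of the importers of the SLC39 family 7, with a median of -0.070, against -0.14 over all genes. On arrays 2 and 3 alone, 2 exporters passed as higher and 1 importer as lower, in a fit that called 12.8% of all genes higher and 20.5% lower. SLC39A10 was not analysed here. In the copper list 7 genes were measured, with a median log2 difference of -0.58. The paired fit called 0 of them lower and 1 higher, SLC31A1, the copper importer of the plasma membrane. It had 1298.8, 1401.7 and 1402.8 on 8-Br-cAMP arrays 1 to 3, against 620.4, 478.7 and 794.8 on controls 1 to 3, with no overlap (log2 difference 1.15, SE 0.22, adjusted p = 0.0474). Its call was lost in the paired fit after quantile normalization, which called 1 gene over all the lists, and with a common median, which called 0. Its difference was 1.18 without the number 1 arrays (adjusted p = 0.00436). In that fit 1 of the 7 genes passed as higher and 3 as lower, beside 12.8% and 20.5% of all genes. SLC31A2, also in the list, had all treated arrays below all controls (log2 difference -1.16, paired fit adjusted p = 0.0607). It passed as lower without the number 1 arrays (adjusted p = 0.00831) and was named after its values were seen. Of all kept probe sets, 18.5% had groups that did not overlap in either direction.

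Glucocorticoid-responsive genes were looked at beside MT2A because that gene responds to glucocorticoids. Of 9 measured genes, 0 rose and 1 fell in the paired fit, SGK1, a kinase of salt balance (log2 difference -1.28, SE 0.19, adjusted p = 0.0262), a call lost with a common median. ZBTB16, a zinc-finger transcription factor induced by glucocorticoids, had the list's largest difference. Its signals were 520.6, 572 and 587.5 on 8-Br-cAMP arrays 1 to 3, against 469.4, 72.9 and 59.9 on controls 1 to 3. The groups did not overlap, but pair 1 differed by 1.11-fold and pairs 2 and 3 by 7.85-fold and 9.81-fold, and it did not pass (log2 difference 2.14, adjusted p = 0.106). It was named after its values were seen. TSC22D3, the glucocorticoid-induced leucine zipper gene, had 912, 1124.9 and 1058.4 on 8-Br-cAMP arrays 1 to 3, against 694.4, 779.7 and 628.6 on controls 1 to 3. Its treated arrays lay above all controls, as did those of 6.02% of all kept probe sets, but it did not pass (log2 difference 0.56, adjusted p = 0.166). NR3C1, the glucocorticoid receptor, differed by -0.60 (95% interval -1.06 to -0.13, adjusted p = 0.151). FKBP5, another receptor target, had a mean signal below the filter level. The median log2 difference of the list was 0.016. Without the number 1 arrays 3 of the 9 passed as higher and 4 as lower, where 12.8% of all genes passed as higher and 20.5% as lower. Among these were ZBTB16 (8.77-fold, adjusted p = 1.89e-05), TSC22D3 (log2 difference 0.64, adjusted p = 0.00852), NR3C1 (-0.51, adjusted p = 0.0109) and SGK1 (-1.20, adjusted p = 0.000244).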

How the data were processed

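The authors deposited linear signal intensities, which GCOS 1.3 gave for every probe set per the submitters' processing notes. The 2% trimmed means of the 6 columns lay between 249.996 and 250.155, so signals were used as deposited and taken to log2. Array controls (62 of 22277 probe sets) were left out, and a filter kept the probe sets whose mean log2 signal exceeded the 40th percentile (5.51). GEO's platform annotation gave 1 symbol for 19064 probe sets. Differences were fitted over the whole table with limma 3.58.1 in R 4.3.3 (intensity trend, two-sided, Benjamini-Hochberg), without a block and with a replicate block for the sample numbers. After subtracting group means, arrays of number 1, 2 and 3 correlated across groups at 0.603, 0.378 and 0.538, each over 0.1, and were treated as pairs. This pairing comes from the data, not the labels. Since the number 1 arrays stood apart in both groups, these correlations cannot show which of arrays 2 and 3 belong together. On log2 signals of kept probe sets, 8-Br-cAMP 2 correlated at 0.885 with control 2 and at 0.904 with control 3. For 8-Br-cAMP 3 these values were 0.884 and 0.904. Leaving out the number 1 arrays used no block. Fits were tested on simulated data with the sample-number effects built in, so the simulation does not test the pairing. The members, the 7 context lists (84 genes) and the alternatives were chosen with earlier results of these data known. Named genes are all member probe sets, up to 3 passing genes per list, a fixed set and the 5 closest profiles to MT2A. Of the fixed set, SLC39A10, HSPA1A and BBS2 were not analysed here. Promoter sequences and gene positions are RefSeq's for GRCh38.p14. Only 6 arrays limit the precision.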

Additional observations from a re-analysis of the deposited data

How the results depend on the processing

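The sign of the mean difference held in all 22 alternatives for 10 of the 12 member probe sets, among them MT2A, MT1X, MT1H, MT1HL1, MT1G 204745_x_at and MT3. Alternatives that change only the block, the filter or limma's variance options leave the mean difference as it was. They could not change its sign, so the 22 are not as many separate checks. MT1F 213629_x_at is also among the 10, although its pairs disagreed in direction. MTF1 205323_s_at ran from -0.081 (without control 1) to 0.22 with 1 array left out, and was -0.042 without 8-Br-cAMP 3, and MT1G 210472_at, below the filter, kept its sign in 16 of 22. Scaling moved the median of all kept probe sets, at -0.13 on the deposited scale, to -0.031 by quantiles and to 0.094 by a common median. The 7 called metallothionein probe sets lay at 1.15 to 1.47 after quantile normalization and at 1.50 to 1.90 with a common median.

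Without a block, limma called 0 of 13329 probe sets, 0 of 11 members and 0 of 48 context genes (unadjusted p under 0.05 in 1474, 6 and 5). With the replicate block it called 428, 7 and 2. Combined with the block, the counts were 337, 7 and 1 after quantile normalization, and 142, 5 and 0 with a common median, where MT2A and MT1G were not called. They were 406, 7 and 2 with no filter, 440, 7 and 3 with the stricter filter, 481, 7 and 2 with a floor, and 548, 7 and 2 with a pseudocount of 16. Without the block, probe sets called were 17 after quantile normalization, 17 with a common median, 18 with the stricter filter, 28 with a floor and 28 with the pseudocount, with 0 members and 0 context genes in each. On arrays 2 and 3 alone, 4103 probe sets, 8 members (7 higher, MT1F 213629_x_at lower) and 21 context genes passed, and log2 signals of these arrays correlated at 0.980 after 8-Br-cAMP and 0.961 in controls. With 1 array left out, counts ran from 0 to 285 probe sets and 0 to 1 context gene, with 0 members, the highest without 8-Br-cAMP 1 (285) and control 1 (58). At 2-fold with an unadjusted p under 0.05, the selection of the series' design text, 880 probe sets and 6 members passed. The cause of these differences was not tested. With 3 arrays in a group, small changes such as those of MTF1 cannot be resolved.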

Other observations

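Genes beside the metallothionein cluster on chromosome 16 were not called. Of 9 measured, 0 passed the paired fit, with a median log2 difference of 0.040. NUP93, a nuclear pore protein, had 435.6, 190.3 and 191.2 on 8-Br-cAMP arrays 1 to 3, against 190.7, 396.7 and 192.9 on controls 1 to 3 (log2 difference 0.040, limma adjusted p = 0.971). HERPUD1, which acts in degradation of proteins from the endoplasmic reticulum, differed by 0.090 (adjusted p = 0.868). The list ran from -0.45 for SLC12A3 to 0.70 for OGFOD1. OGFOD1 and NUDT21 (0.65) were higher in all 3 pairs, with paired adjusted p = 0.145 and 0.171. These genes were named after their values were seen. Without the number 1 arrays 3 of the 9 passed as higher, HERPUD1, NUDT21 (adjusted p = 0.0296) and OGFOD1 (adjusted p = 0.0485), and 0 as lower. In that fit 12.8% of all genes passed as higher and 20.5% as lower.

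Of 8 measured heat and metal stress genes, 0 passed the paired fit, which called 1.73% of all genes higher and 1.96% lower. HMOX1, the haem oxygenase that metals and oxidants induce, had 99.7, 71.9 and 94.6 on 8-Br-cAMP arrays 1 to 3, against 239.1, 174.3 and 150.5 on controls 1 to 3. Its treated arrays all lay below the controls, at a log2 difference of -1.07 (SE 0.26, limma paired adjusted p = 0.0825). Over all kept probe sets, 18.5% had groups that did not overlap in either direction. Without the number 1 arrays HMOX1 differed by -0.97 (adjusted p = 0.0176), and DNAJB1, a heat-shock co-chaperone, was 1.68-fold higher (adjusted p = 0.00292). DNAJB1 was named after its values were seen. In that fit 1 of the 8 genes passed as higher and 1 as lower, where 12.8% of all genes passed as higher and 20.5% as lower.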
